A study of Oryza sativa Japonica Group with 9 samples.

Results

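The regions described here are peaks of chromatin immunoprecipitation against OsbZIP23. They are listed for unstressed wild-type rice and for neither of the other chromatin samples of the study. A peak of the ZH11 normal list was a member when it overlapped by 1 bp or more no peak of the ZH11 drought list and no peak of the overexpressor list. The rule selected 750 of the 1738 ZH11 normal peaks, among 17609 peaks in the 3 lists together. The members were therefore chosen by the readout itself, and their tags, fold enrichment, length and score are given as descriptions without a test.

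Chromatin immunoprecipitation with sequencing (ChIP-seq) was done with a rabbit polyclonal antibody raised against OsbZIP23, on the above-ground parts of rice seedlings at the 4-leaf stage. The wild type was Zhonghua 11 (ZH11, Oryza sativa ssp. japonica), sampled with no stress and under drought, when all leaves had rolled. The other sample was an OsbZIP23 overexpressor with no stress; the promoter that drives its transgene and the number of lines are not given in the sources used here. Each sample took 3 g of seedlings, so each library pools plants and tissues, and fewer cells with a bound site cannot be told apart from weaker binding in each cell. Each group had 1 library, so no difference between libraries has a replicate check.

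OsbZIP23 is a basic leucine zipper (bZIP) transcription factor. Factors of its subfamily act downstream of the hormone abscisic acid (ABA), which accumulates in drying plants. SnRK2 kinases activate these factors by phosphorylation, and they bind ABA-responsive elements in the promoters of stress genes. Binding by such a factor in watered plants is of interest because the hormone is then low.

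The transcript of the antigen itself differed widely between these groups. In the RNA libraries of the same 3 genotype and stress groups, OsbZIP23 (LOC_Os02g52780; the tables call it ABRE binding factor 4) had 18.7 FPKM in ZH11 normal, 215 FPKM in ZH11 drought and 735 FPKM in the overexpressor. The numbers of peaks went in the same order, with 1738, 4260 and 11611. A link between the transcript and the number of peaks was not tested, and the transcript is not the protein that the antibody binds. The members come from the sample with the lowest transcript level and the shortest peak list. They made up 43.2% of that list (exact 95% binomial interval 40.8–45.5%). By the same rule 1459 drought peaks (34.2% of that list) and 8779 overexpressor peaks (75.6%) had no counterpart. Intervals here and below cover counting error only.

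The lists gave 7.80 M tags for ZH11 normal, 9.93 M for ZH11 drought and 6.96 M for the overexpressor before duplicates were removed. After that the caller used 6.15 M tags for ZH11 normal, 7.14 M for ZH11 drought and 6.05 M for the overexpressor. Duplicate tags made up 0.21, 0.28 and 0.13 of the tags in the same order, and 1 tag per position was kept. The peaks covered 2.46 Mb, 6.60 Mb and 15.5 Mb, which was 0.657%, 1.76% and 4.16% of the 374 Mb spanned by peaks of all lists.

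The remaining 988 ZH11 normal peaks fell into 3 classes. Peaks of all 3 lists numbered 448, peaks shared with drought alone 293, and peaks shared with the overexpressor alone 247. The drought list overlapped 42.6% of the ZH11 normal peaks (40.3–45.0%) and the overexpressor list 39.99% (37.7–42.3%). The overlaps were of similar size although the overexpressor list covered more sequence.

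The members were mostly weak peaks. Their median score, which is -10 log10 of the caller's p value, was 57.8, and the list starts at 50. The middle 50% of the members had scores from 53.2 to 66.3. Scores under 60 were held by 442 members, scores from 60 to 80 by 240, and scores from 80 to 100 by 54. Only 13 members lay between 100 and 150, and 1 lay above. The median score was 79.5 for peaks of all 3 lists, 62.2 for peaks shared with drought alone and 59.3 for those shared with the overexpressor alone.

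Set against the whole ZH11 normal list, the share of peaks without a counterpart went down with the score. It was 54.0% (50.5–57.4%) of the 819 peaks with scores of 50 to 60 and 44.2% (39.97–48.5%) of the 543 with scores of 60 to 80. It was 30.5% (23.8–37.9%) of the 177 with scores of 80 to 100 and 11.9% (6.51–19.5%) of the 109 with scores of 100 to 150. Above 150, 1 of 90 peaks was a member, or 1.11% (0.0281–6.04%). All but 1 of the ZH11 normal peaks with scores above 150 therefore had an overlapping peak in another list.

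**Figure D1:**
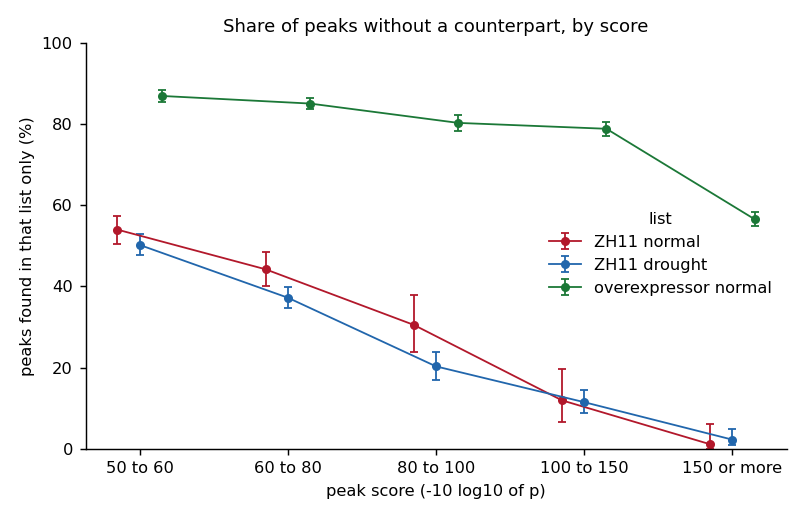
Share of peaks found in 1 list only (vertical axis, %) by bands of the caller's score (horizontal axis), for each of the 3 lists, with exact 95% binomial intervals as bars. The shares of ZH11 normal and ZH11 drought go down from 54.0% and 50.2% in the lowest band to 1.11% and 2.25% in the highest, while the overexpressor goes from 86.9% to 56.5%.

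The drought list had a gradient in the same direction. Its share without a counterpart was 50.2% (47.6–52.8%) in the lowest score band and 2.25% (0.829–4.83%) in the highest. In the overexpressor list it was 86.9% (85.4–88.3%) in the lowest band, and 56.5% (54.8–58.2%) of the 3243 peaks above 150 still had no counterpart. Peaks found only in the overexpressor thus included many strong peaks, which those found only in ZH11 normal did not.

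The members carried few tags, close to the ZH11 normal list as a whole. A tag is a sequenced end kept by the caller, here 49 bp long, and the count is not scaled to depth. Their median was 31.5 tags (order-statistic 95% interval 29–34), with the middle 50% at 18 to 49 and a range of 7 to 507. The whole ZH11 normal list had a median of 34 tags (33–36). Peaks of all 3 lists had a median of 41 tags (38–45), peaks shared with the overexpressor alone 44 (40–48) and peaks shared with drought alone 26 (23–28). Of the members, 73 had under 10 tags and 15 had 100 or more. Members were 62.9% (53.5–71.7%) of the 116 ZH11 normal peaks with under 10 tags and 14.0% (8.06–22.1%) of the 107 with at least 100.

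Per length, the members stood little above the library's mean, and so did the median shared ZH11 normal peak. Their median density was 26.2 tags per kb (25.8–26.6), which was 1.59 times (1.57–1.62) the 16.5 tags per kb that the library's tags give when spread over the 374 Mb span. A density of at least 2 times that mean was reached by 68 of the 750 members, or 9.07% (7.11–11.4%). Among the shared ZH11 normal peaks it was reached by 297 of 988, or 30.1% (27.2–33.0%). The densest member had 75.1 tags per kb, and the densest shared peak had 508 tags per kb. The ratio of median to library mean was 1.72 (1.69–1.74) for the shared ZH11 normal peaks, close to that of the members. Peaks shared with drought alone had a median of 24.9 tags per kb (24.5–25.5), below the members' 26.2. The same ratio was 1.65 (1.63–1.67) for peaks only in drought and 3.26 (3.23–3.29) for peaks only in the overexpressor.

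Fold enrichment is the authors' own value for each peak, the tags at its top over the local background. The members' median was 5.83 (5.62–6.03), the middle 50% lay between 4.77 and 8.06, and the range was 3.13 to 28.9. Peaks of all 3 lists and peaks shared with drought alone both had a median of 7.18, and peaks shared with the overexpressor alone had 5.35. A fold under 5 was held by 228 members, 5 to 10 by 383, 10 to 15 by 92 and 15 or more by 47. The member share was 48.5% (43.9–53.1%) of ZH11 normal peaks with folds under 5 and 31.3% (24.0–39.4%) of those at 15 or more.

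Fold enrichment went with length. The median member was 1152.5 bp long (1086–1230), with the middle 50% at 687 to 1795 bp and a range of 211 to 6755 bp. The 108 members under 500 bp had medians of 9 tags and 14.2-fold enrichment. The 199 members of 500 to 1000 bp had 20 tags and 7.24-fold. The 304 members of 1000 to 2000 bp had 38 tags and 5.26-fold, and the 139 longer ones had 66 tags and 4.49-fold. The short members were thus steep and sparse, and the long ones flat.

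**Figure D2:**
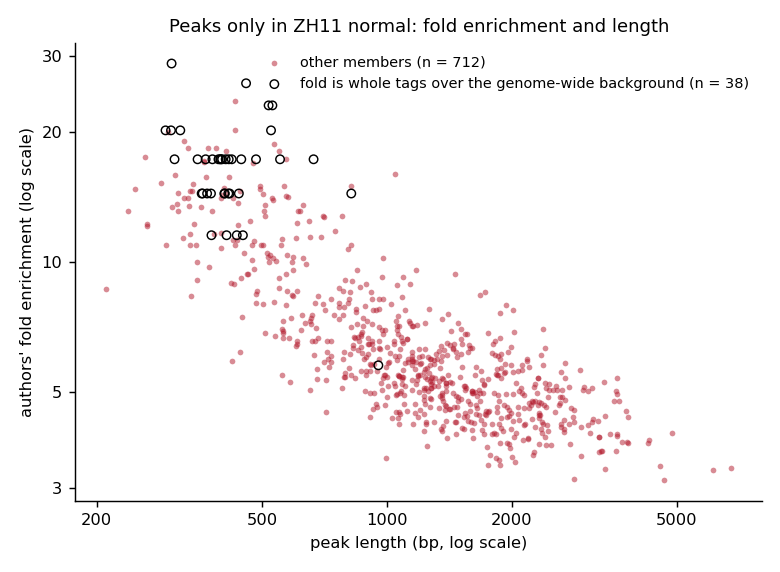
Fold enrichment as the authors' caller gave it (vertical axis, log scale) against peak length in bp (horizontal axis, log scale) for the 750 members. Open circles mark the 38 members whose fold is a whole number of tags over the genome-wide background; all but 1 lie above 11-fold, among the short members at the upper left.

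Across the 750 members, Spearman's rho of length and fold was -0.81 and that of length and tags 0.97. These points share 1 library and the caller's windows, so the values are descriptions. The rho of length and fold was -0.76 among the shared ZH11 normal peaks, -0.76 among peaks only in drought and -0.10 among peaks only in the overexpressor. Length and fold were thus closely tied among the members and only loosely among the overexpressor's unmatched peaks.

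The steepest members rested on very few tags. The highest fold, 28.9, was at chr8:4922331-4922633, a peak of 303 bp with 10 tags, with a drought peak 5129 bp and an overexpressor peak 5326 bp away. Next came chr11:28160112-28160569 with 13 tags and 26.0-fold. The third was chr12:17149226-17149655 with 11 tags and 23.7-fold, which had its nearest drought peak 39860 bp away. Both chr4:17796790-17797308 (13 tags) and chr5:12489829-12490358 (11 tags) had 23.1-fold. These positions are as the peak lists give them; the genome assembly is not named in the sources used here, so no gene or base sequence could be set beside them.

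The other 5 of the 10 steepest members had folds of 20.2. They were chr9:2854696-2855125 with 11 tags, chr11:23312683-23313208 with 10, chr12:16938453-16938770 with 9, and chr11:28153293-28153594 and chr12:5355246-5355538 with 7 each. All 10 were 293 to 530 bp long. The peak at chr12:16938453-16938770 lay 588 bp from an overexpressor peak of 8.69-fold and 9 tags. The other 4 had their nearest peak in another list 2978 to 18306 bp away.

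The folds of these steep members took fixed steps. The file header gives 6153810 tags, a fragment length of 152 bp and an effective genome size of 2.7 Gb, from which the mean background is 0.346 tags per fragment length. A fold in which that background is used must be a whole multiple of 2.89. It was so, within 0.005, for 38 members, or 5.07% (3.61–6.89%), at implied tops of 2 to 10 tags. Some matches can arise without that background. The 1 match at 2 tags, with a fold of 5.77, had 18 tags over 954 bp and is doubtful. Of the 38, 15 members had a fold of 17.3, which is 6 tags, 10 had 14.4, which is 5 tags, and 8 were among the 10 steepest. In the shared ZH11 normal peaks it was so for 25 of 988, or 2.53% (1.64–3.71%). With the background of each list's own header, it was so for 60 of 1459 peaks only in drought, or 4.11% (3.15–5.26%). Among peaks only in the overexpressor it was so for 33 of 8779, or 0.376% (0.259–0.527%). The members thus did not stand apart from the peaks only in drought.

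The genome size stated in the header bears on these values directly. The 374 Mb span would give a background of 2.50 tags in place of 0.346, a difference of 7.22-fold. On that background the 6-tag tops would have a fold of 2.40 and the 10-tag top a fold of 3.998. For any peak, the tags over the fold are the highest background it can have had. That limit was below 2.50 for 196 members, 26.1% (23.0–29.4%), and for 270 shared ZH11 normal peaks, 27.3% (24.6–30.2%). Because the limit is itself set by the fold, steep peaks with few tags fall below it nearly by construction. A limit above 2.50 does not show that a peak's background was higher, so these counts are the least number of peaks with a background under 2.50 tags.

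At the other end were long members with many tags and low folds. The longest and richest was chr8:3668831-3675585, of 6755 bp, with 507 tags and a fold of 3.34. An overexpressor peak with 315 tags and 7.83-fold began 1399 bp away. The member at chr12:8241511-8247602 was 6092 bp long with 250 tags and 3.30-fold, and no peak of another list lay within 52720 bp. The member at chr12:20497748-20501330, with 250 tags and 3.96-fold, had the highest score of all, 157, and an overexpressor peak with 312 tags lay 15 bp away.

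Of the other members named for tags, length or a low fold, chr11:23428099-23432958 had 139 tags over 4860 bp and 4.02-fold. The member chr11:23894603-23898374 had 134 tags and 4.52-fold. The lowest fold was 3.13, at chr2:4409038-4413687, over 4650 bp with 119 tags. An overexpressor peak lay 659 bp from it. The members chr1:37268838-37273394 (125 tags, 3.37-fold), chr1:32854779-32857595 (111 tags, 3.15-fold) and chr11:26851761-26855119 (79 tags, 3.31-fold) had the same flat form.

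The 14 members with scores of at least 100, singled out after their values were seen, lay on 9 chromosomes. Their folds ran from 3.96 to 26.0 with a median of 10.1, and their tags from 13 to 250. Of these, 3 had a peak of another list within 1000 bp and 8 within 10000 bp. The second highest score, 147, was at chr6:3489687-3490731, with 27 tags and 16.0-fold. Its nearest drought peak lay 5768 bp away.

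Most members lay more than 1000 bp from any peak of the other lists. The median gap to the nearest drought peak was 22858 bp and that to the nearest overexpressor peak 15116 bp. To the nearer of the lists the median gap was 10435.5 bp, with the middle 50% at 4452 to 21104.5 bp. A peak of another list lay within 500 bp of 52 members, or 6.93% (5.22–8.99%), and within 1000 bp of 82, or 10.9% (8.79–13.4%). Of the 82, 56 were near a drought peak and 41 near an overexpressor peak, 15 of them near both. A drought peak lay within 1000 bp of 7.47% (5.69–9.59%) of the members and 1.79% (1.52–2.09%) of the peaks only in the overexpressor. An overexpressor peak lay within 1000 bp of 5.47% (3.95–7.34%) of the members and 6.99% (5.74–8.42%) of the peaks only in drought. Within 10000 bp of a peak of either other list there were 371 members, or 49.5%. For scale, the drought list had 1 peak per 87.8 kb of the span and the overexpressor list 1 per 32.2 kb.

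**Figure D3:**
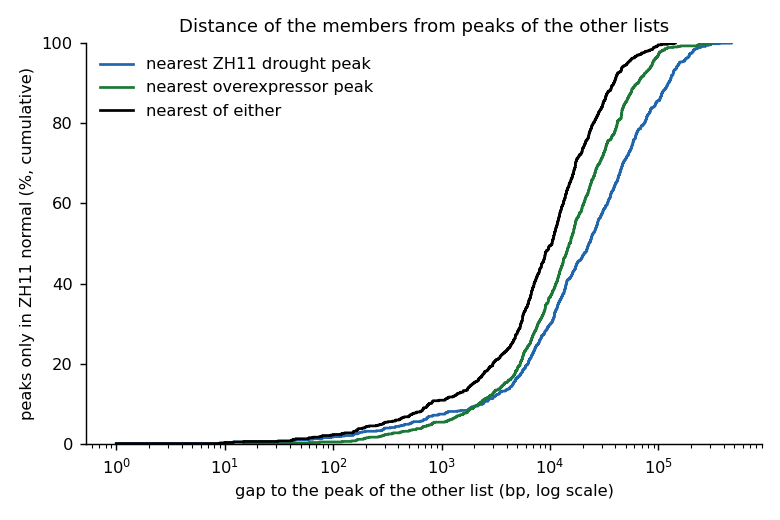
Cumulative share of the 750 members (vertical axis, %) by the gap to the nearest peak of the drought list, the overexpressor list or either (horizontal axis, bp, log scale). The curves reach 50% at 22858, 15116 and 10435.5 bp; 10.9% of the members have a peak of either list within 1000 bp.

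The members just inside the rule lay within 10 bp of drought peaks. The peak chr2:17418467-17419812 (38 tags, 5.70-fold) adjoined, at 1 bp from edge to edge, a drought peak of 52 tags and 4.10-fold. Gaps of 9 and 10 bp separated chr11:25909440-25910162 (18 tags, 5.98-fold) and chr11:18190783-18191341 (10 tags, 11.3-fold) from drought peaks. Just outside it, chr1:13011241-13012551 (32 tags, 12.3-fold) overlapped a drought peak by 6 bp, and chr9:11448980-11449467 (9 tags, 13.7-fold) by 21 bp. The peak chr6:5612470-5613568 (32 tags, 5.33-fold) overlapped an overexpressor peak by 29 bp. The scores were 54.2, 52.0 and 59.4 for the 3 just inside the rule and 132, 63.3 and 61.99 for the 3 just outside it, in the order given.

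Members occurred on all 12 chromosomes, with 4 more on the sequence named Sy and 2 on that named Un. Chromosomes 6 and 11 had the most, 85 each, of 193 and 198 ZH11 normal peaks (44.0% and 42.9%). Per 10 Mb, chromosome 11 had 29.4 members, chromosome 6 had 27.2, chromosome 12 had 25.1 and chromosome 4 had 23.1. Of the 12 chromosomes, the shared ZH11 normal peaks were densest on the same ones. They had 39.0, 34.6, 30.9 and 29.0 per 10 Mb in that order. Chromosome 3 had 34 members in all, or 9.36 per 10 Mb. On that chromosome they were 28.6% (20.7–37.6%) of the ZH11 normal peaks. On the other 11 chromosomes that share ran from 41.2% on chromosome 10 to 48.6% (38.7–58.5%) on chromosome 8. Chromosomes 1 and 3 led the overexpressor list with 399 and 393 peaks per 10 Mb, and chromosomes 11 and 12, with 233 and 231, came last there. Chromosome 1 nevertheless had 17.6 members per 10 Mb, which were 43.2% (35.8–50.8%) of its ZH11 normal peaks.

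**Figure D4:**
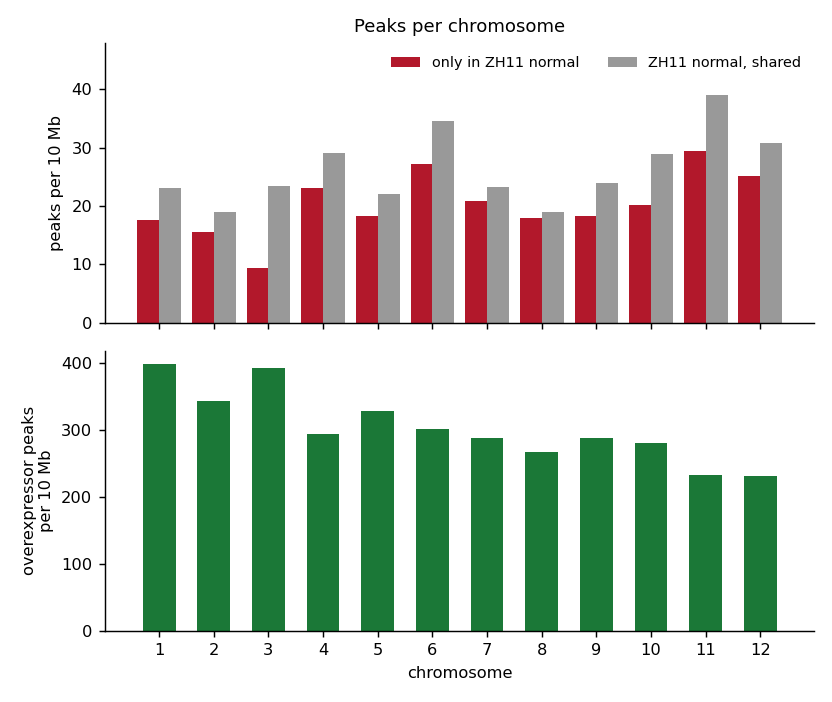
Peaks per 10 Mb of chromosome (vertical axes, from 0) on the 12 chromosomes (horizontal axis), for members and shared ZH11 normal peaks in the upper panel and for all overexpressor peaks in the lower. Chromosome 3 has the fewest members, 9.36 per 10 Mb, and 393 overexpressor peaks. Chromosome 11 has the most members, 29.4, and 233 overexpressor peaks. Chromosome 1 has the most overexpressor peaks, 399, and 17.6 members.

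Each chromosome was cut into 10 equal parts from its start to the last peak of any list. The members were spread unevenly over them, with no steady trend. The fourth held 101 of the 744 members on the 12 chromosomes, or 13.6% (11.2–16.2%). The eighth held the fewest, 51 or 6.85% (5.15–8.91%). The first part held 82, the third 89, the fifth 81, the sixth 68 and the seventh 87. The overexpressor peaks were fewest where the members were most, with 6.23% (5.80–6.69%) in the fourth part and 13.1% (12.4–13.7%) in the eighth. The shared ZH11 normal peaks had 14.2% (12.1–16.5%) and 9.56% (7.78–11.6%) in the same parts, and all drought peaks 10.4% (9.49–11.4%) and 11.5% (10.5–12.5%). Peaks only in drought had 12.97% (11.3–14.8%) and 8.21% (6.85–9.74%) there. The contrast of members and overexpressor peaks did not hold in every part. The seventh part held 11.7% (9.47–14.2%) of the members and 10.7% (10.1–11.3%) of the overexpressor peaks. Because the rule takes out ZH11 normal peaks that overlap overexpressor peaks, these sets are not independent. The third to seventh parts together held 57.3% (53.6–60.8%) of the members and 56.6% (54.0–59.2%) of the peaks only in drought. By these shares the members did not stand apart from the peaks only in drought.

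**Figure D5:**
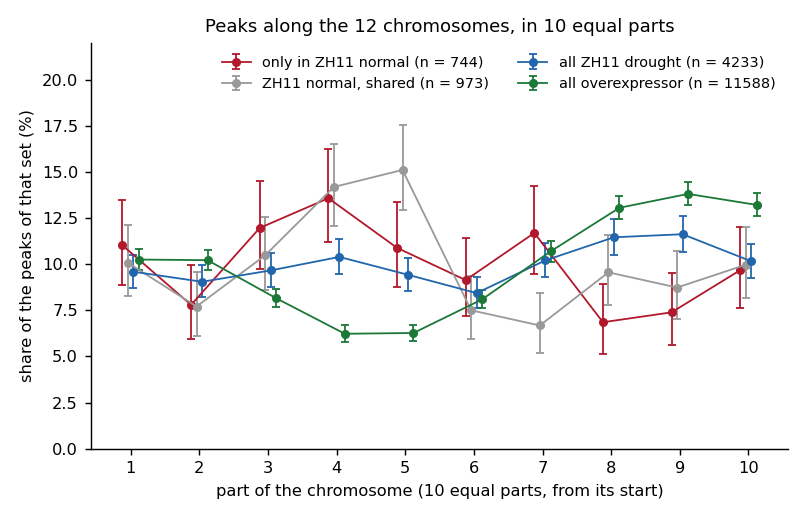
Share of the peaks of a set (vertical axis, %) in each of 10 equal parts of the chromosome (horizontal axis), pooled over the 12 chromosomes, with exact 95% binomial intervals. Members have 13.6% in the fourth part and 6.85% in the eighth, while overexpressor peaks have 6.23% and 13.1%. In the seventh part members have 11.7% and overexpressor peaks 10.7%.

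On the scale of 1 Mb, 296 of 378 bins held a member and 35 held at least 5. The bin from 9 to 10 Mb of chromosome 4 held the most, 10, beside 7 shared ZH11 normal peaks. There were 3 bins with 9 members, and their shared peaks differed. The bin from 15 to 16 Mb of chromosome 6 held 8 shared peaks, that from 26 to 27 Mb of chromosome 1 held 2 and that from 17 to 18 Mb of chromosome 11 held 0. Across the bins, the count of members had a Spearman's rho of -0.31 with the overexpressor peaks and 0.18 with the drought peaks. Its rho was 0.29 with the shared ZH11 normal peaks and 0.42 with the peaks only in drought. The count of peaks only in drought had nearly the same rho with the overexpressor peaks, -0.30, and that of shared ZH11 normal peaks -0.04. Bins share chromosomes and the local number of mappable tags, so these are descriptions, and sets that a single overlap rule divides are not independent.

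The bins were also grouped by their overexpressor peaks. The 45 bins with fewer than 15 overexpressor peaks held 2.51 members each, the 153 bins with 15 to 30 held 2.34, the 71 bins with 30 to 40 held 1.80 and the 109 bins with 40 or more held 1.33. Shared ZH11 normal peaks had 2.02, 3.13, 2.39 and 2.14 per bin in the same order, highest in the second group. The members' share of the ZH11 normal peaks was 55.4% (48.3–62.3%) in the first group, 42.8% and 43.0% in the next ones and 38.4% (33.4–43.5%) in the last. Part of that share follows from the rule, because a dense overexpressor list leaves fewer peaks without an overlap.

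Close pairs of members were few in number. Whether they were more or fewer than random placement gives was not tested. The median gap between neighbouring members was 258281 bp, and 38 neighbouring pairs lay within 10000 bp of each other, 2 of them within 1000 bp. Another ZH11 normal peak of any class lay within 10000 bp of 149 members (19.9%) and of 338 shared peaks (34.2%). For scale, the whole ZH11 normal list had 1 peak per 215 kb of the span.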

How the data were processed

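The members and the comparisons were chosen with earlier results of these data known. Per the file headers, the authors called peaks in each library separately with MACS 1.4.2, without a control library. The p cutoff was 1e-05, the local background came from windows of 10000 bp, and duplicates were reduced to 1 tag. Trimmomatic 0.32 was used for trimming, per the submitters' processing notes; the aligner of the ChIP reads and the genome build are not given in the sources used here. The deposited lists give tag counts, a score (-10 log10 of p) and fold enrichment, a ratio, for each peak. The deposited RNA tables give FPKM, which is printed for 1 gene, and expected counts, in the deposited column of read numbers, which are not printed here.

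Overlaps, gaps and medians were computed with pandas 2.3.3 and scipy 1.17.1, tested on simulated data against bedtools 2.31.1. Shares carry exact (Clopper-Pearson) 95% intervals and medians order-statistic ones; both cover counting error only, and neighbouring peaks are not independent. With 1 library a group no test was made. The named members are the 10 of highest fold, 5 each of most tags, greatest length and lowest fold, and 3 on either side of the overlap rule. Motifs and neighbouring genes, planned for a genome of the files' build, were not analysed here. The tags of the other libraries inside the members were also not analysed here, so a missing peak does not show missing binding. Nor does a listed peak by itself show binding by OsbZIP23, because each list rests on 1 library without a control library.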

Additional observations from a re-analysis of the deposited data

How the results depend on the processing

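The number of members depended on the threshold and on what counts as shared. It was 1171 (67.4% of ZH11 normal peaks) when only summits within 200 bp counted as shared, and 960 (55.2%) when 50% of the peak had to be covered. It was 698 (40.2%) and 668 (38.4%) when peaks within 500 and 1000 bp counted as shared. Against the drought list alone it was 997 (57.4%) and against the overexpressor list alone 1043 (60.01%). With a fold of at least 10 it was 139 (36.4%), and with a score of at least 100 it was 14 (7.04%), or 45 (22.6%) when all lists were held to that score. In those 45, 28.9% had a peak of another list within 10000 bp. The 14 had medians of 1250.5 bp, 40 tags and 10.1-fold, and 2 of them (14.3%) lay on chromosome 6 against 3 each on chromosomes 4 and 11; chromosomes 6 and 11 tie for the most of all 750 members. Without peaks whose possible background lay under that of the 374 Mb span, an alternative chosen after seeing the data, 554 members (43.6%) were left. The other alternatives for the medians of length, tags and fold and for the share on chromosome 6 moved them by less than their intervals. The share with an ACGT core was not run. No paired analysis was possible because each group had 1 library.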

Other observations

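A run of neighbouring members lay near the end of chromosome 11, noticed after the values were seen. The members chr11:28120453-28122339 (49 tags, 6.13-fold), chr11:28140655-28141459 (22 tags, 10.7-fold), chr11:28153293-28153594 (7 tags, 20.2-fold) and chr11:28160112-28160569 (13 tags, 26.0-fold) followed each other. Their nearest drought peaks lay 4596, 167, 10967 and 15895 bp away, and their nearest overexpressor peaks 6657, 356, 10967 and 9042 bp away. Their lengths were 1887, 805, 302 and 458 bp in the same order, and the folds of the last pair were whole tags over the genome-wide background. The next member along, chr11:28247175-28247558, had 8 tags and 11.6-fold. This was not the only such run. On chromosome 1, members followed each other from chr1:12460013-12460348 to chr1:12493799-12496156, and the last of them had its nearest drought peak 21992 bp away.

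Sequences outside the 12 chromosomes held 21 ZH11 normal peaks. On the sequence named Sy, 4 of 14 were members (28.6%, exact 95% interval 8.39–58.1%), and on that named Un 2 of 7 (28.6%, 3.67–71.0%). The median score of members ranged over the 12 chromosomes from 56.4 on chromosome 12 to 61.8 on chromosome 3, the chromosome with the fewest.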
